A study of Mus musculus with 6 samples.

Results

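T cells and natural killer (NK) cells were followed in Myc-driven B-cell tumors through 31 of their genes, found by gene name among the 38293 genes of the expression table. All 31 names matched. The genes covered 6 roles, namely the CD3 complex, the coreceptors, signaling below the T cell receptor, T-lineage commitment, costimulation with inhibition and adhesion, and NK receptors with cytotoxic effectors. RNA-sequencing was performed on 6 tumors of Eμ-Myc mice, in which Myc is placed under an immunoglobulin enhancer that is active in B-lineage cells. There were 2 miR-146a-deficient tumors (Myc tg; miR-146a-/-), both from the thymus, of mice aged 11 weeks (deficient 1) and 10 weeks (deficient 2). There were 4 miR-146a-sufficient tumors (Myc tg; miR-146a+/+), from the neck node at 18 weeks (sufficient 1) and 16 weeks (sufficient 2) and from the thymus at 10 weeks (sufficient 3 and sufficient 4). All mice were C57BL6 and carried the Myc transgene. The tumors were dispersed to single cells and lysed with no sort, so that T and NK cells present in the tumor contributed RNA. The deficient mice were labelled female and the sufficient mice male, so genotype and labelled sex cannot be told apart. Both neck node tumors were sufficient, so genotype was partly confounded with site and with age.

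T cells recognize antigen through the T cell receptor, whose chains are carried to the surface by the CD3 proteins and whose signal passes through the kinases Lck and Zap70 to the adaptor Lat. NK cells share part of this machinery, such as the zeta chain, and kill through perforin and granzymes. miR-146a is a microRNA that dampens NF-κB signaling in both lymphoid and myeloid cells. The knockout alleles were inherited, so T and NK cells of a deficient mouse lacked the microRNA together with the tumor cells.

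The CD3 genes are shown first because they define the T lineage and lie together on chromosome 9. Cd3g and Cd3d were divergent neighbours with 1.354 kb between them, and Cd3e lay 11.4 kb beyond Cd3d (GRCm38, GENCODE M21). Their promoters, from 250 bases before to 50 bases after the transcript start in RefSeq on GRCm38.p6, are given 5′ to 3′ with motif matches in capitals. The motifs were the E protein letters CAGGTG, the ETS letters GGAAGT, the TCF/LEF letters CTTTGA, the RUNX letters TGTGGT and an EGR core GTGGGCG, each searched on both strands, and none of the matches shown overlap.
Cd3g promoter, chr9:44980382-44980681 (minus strand): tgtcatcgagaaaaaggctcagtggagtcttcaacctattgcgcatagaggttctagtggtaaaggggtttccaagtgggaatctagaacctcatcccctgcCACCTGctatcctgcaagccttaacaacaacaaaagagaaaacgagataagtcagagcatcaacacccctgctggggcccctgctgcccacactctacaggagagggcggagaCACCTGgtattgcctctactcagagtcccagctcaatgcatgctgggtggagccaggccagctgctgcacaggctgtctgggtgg
Cd3d promoter, chr9:44981536-44981835 (plus strand): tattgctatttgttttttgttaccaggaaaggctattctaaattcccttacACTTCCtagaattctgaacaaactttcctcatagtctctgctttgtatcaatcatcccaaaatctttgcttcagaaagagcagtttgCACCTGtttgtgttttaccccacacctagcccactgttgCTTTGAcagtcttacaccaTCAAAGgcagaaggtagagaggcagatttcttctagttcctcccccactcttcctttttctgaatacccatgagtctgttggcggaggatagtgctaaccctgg
Cd3e promoter, chr9:45009562-45009861 (minus strand): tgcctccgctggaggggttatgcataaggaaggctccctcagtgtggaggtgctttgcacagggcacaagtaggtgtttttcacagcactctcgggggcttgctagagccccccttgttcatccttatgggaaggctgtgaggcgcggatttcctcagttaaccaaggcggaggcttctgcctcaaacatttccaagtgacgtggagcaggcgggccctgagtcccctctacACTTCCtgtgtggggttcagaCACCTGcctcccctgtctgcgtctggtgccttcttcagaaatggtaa
All 3 promoters held the E protein letters. With the start of the transcript as position 0, these lay at -148 and at -35 in Cd3g, at -112 in Cd3d and at 3 in Cd3e. Promoters in RefSeq were found for 22 of the 31 genes, with 28 windows in all, some of which overlap because a gene has several starts. The E protein letters were in 13 of the 28 windows (46.4%), against 20.2% of all 32851 promoters. The ETS letters were in 11 windows (39.3%, against 23.8% of all promoters) and the RUNX letters in 10 windows (35.7%, against 16.8%). The TCF/LEF letters were in 6 windows (21.4%, against 16.0%), and the EGR core was in 1 window, of Lck (3.57%, against 7.97%). A match of letters is a description and not a binding site.

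The microRNA removed in the deficient mice is given with its seed, bases 2 to 8, in capitals, and lies at chr11:43374435-43374456 on the minus strand (GRCm38.p6). The windows under it are 3′UTR stretches of Cd28, Cd3g, Tcf7 and Cd4 with a seed match in capitals, written as DNA. AGTTCTC pairs with bases 2 to 8, and GTTCTCA pairs with bases 2 to 7 and has an A opposite base 1. They are shown because Cd28 held the longest match of the set, 8 bases with that A included, and because Cd3g and Tcf7 were among the genes that did not overlap between the genotypes.
mmu-miR-146a-5p: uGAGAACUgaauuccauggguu
Cd28 3′UTR match: gacgacatcaaAGTTCTCAagtacctacaa
Cd3g 3′UTR match: ccttgtttgggGTTCTCAgcaccccacccc
Tcf7 3′UTR match: cggctccctgtGTTCTCAggcgcttgcaag
Cd4 upstream 3′UTR match: tgatcactgctGTTCTCAcccccccctcct
Cd4 downstream 3′UTR match: cccaaaaccctAGTTCTCttagagtgaggc
Icos and Il2rb also held 1 match each. In all, 6 of the 31 genes (19.4%) held a match, close to the 20.0% of 10707 tested genes with an annotated 3′UTR. Of these 6 genes, Il2rb averaged 2.13 ± 0.706 RPKM in deficient (SD, n = 2) and 2.01 ± 1.49 RPKM in sufficient tumors (SD, n = 4), and the other 5 averaged lower in deficient tumors.

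Values were RPKM, reads scaled by gene length and by mapped reads, with 1 value per gene and tumor. The summed RPKM of deficient 1 was 1932926, and 692853 without Xist, against 714062 in deficient 2 and 675516 to 788919 in the sufficient tumors. Ddx3y, a gene of the Y chromosome, was at 0.13 in deficient 1 and at 24.6 in deficient 2, against 17.9 to 23.0 in the 4 sufficient tumors. The library labelled deficient 2 thus went against its female label, and counts without it are given below. Mir146, the precursor gene, was listed at 0 in every tumor, so these values do not check the knockout. The number of genes at 0.5 RPKM or above was 11914 and 12438 in deficient tumors, against 11533 to 12319 in sufficient tumors. No read depth accompanied the values, and the spread between tumors was the only measure of precision.

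Most of the 31 genes were low in every tumor beside the B-cell gene Cd79a, and most were highest in the same 2 sufficient tumors. Cd79a ranged over 388 to 550 RPKM, whereas Cd3d did not exceed 10.8 RPKM. Not all B-cell markers were that high. Igll1 ranged over 0.0814 to 6.64 RPKM, Vpreb1 over 0.224 to 10.4 RPKM and Ebf1 over 3.67 to 15.5 RPKM. Sufficient 1, from the neck node, and sufficient 3, from the thymus, were the highest 2 tumors for 21 of the 31 genes. Sufficient 4, also from the thymus, was the lowest tumor for 14 genes and a deficient tumor for 10. In such bulk RNA, fewer cells of a type and less RNA per cell cannot be told apart.

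**Figure D1:**
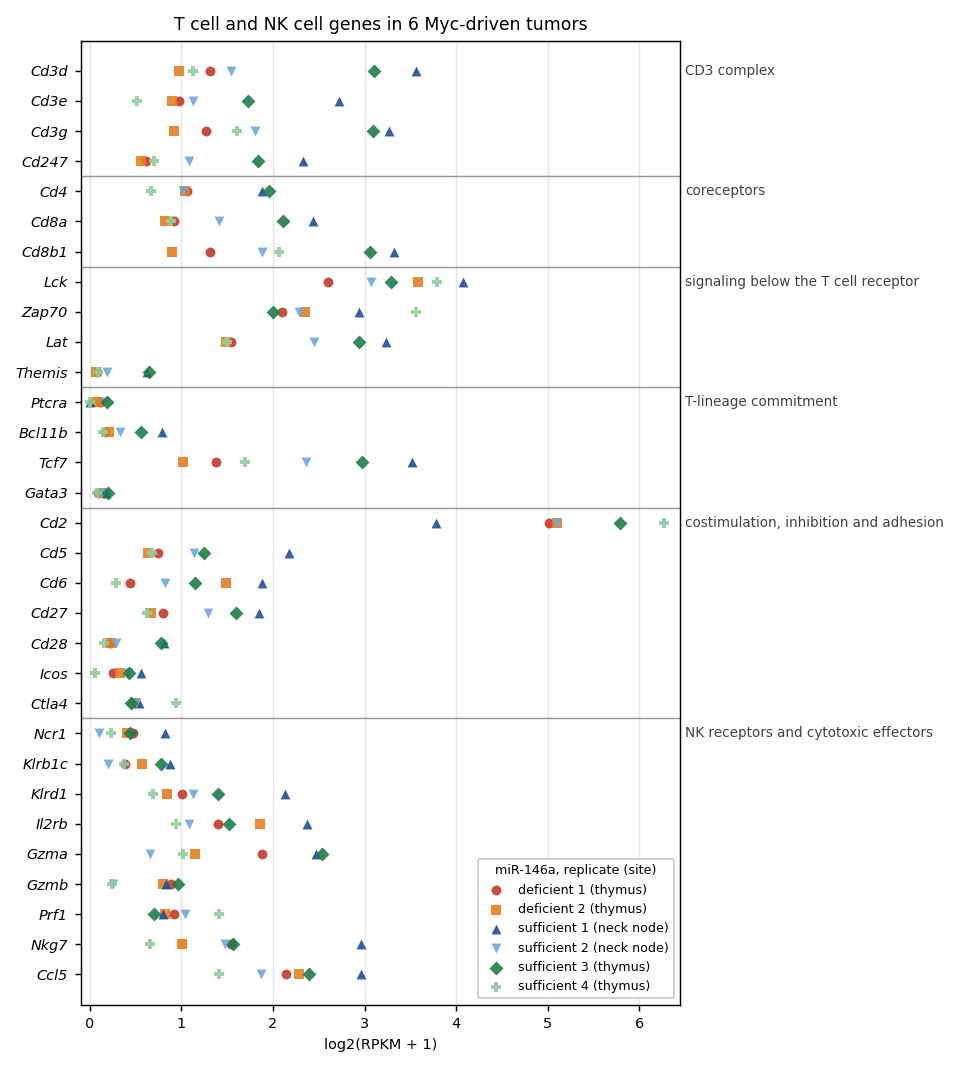
Each row is a gene and each point a tumor, with log2(RPKM + 1) on the horizontal axis and the roles set apart by lines. Sufficient 1 and sufficient 3 lie to the right for most rows of the CD3 complex and coreceptors. Other genes follow another order, among them Lck, Zap70, Cd2, Ctla4 and Prf1. For Cd6, Il2rb, Ncr1 and Gzmb a deficient tumor is second.

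The genes of the CD3 complex and its zeta chain all had their highest levels in sufficient 1, followed by sufficient 3. Cd3d, encoding the delta chain, was at 1.49 and 0.961 RPKM in deficient tumors, against 10.8, 1.90, 7.61 and 1.18 RPKM in sufficient tumors 1 to 4. Cd3e, the epsilon chain, was at 0.963 and 0.857 RPKM in deficient tumors, against 5.59, 1.19, 2.31 and 0.428 RPKM in sufficient tumors. For both genes sufficient 4 fell within or below the deficient values, and the groups overlapped. Cd3g, the gamma chain, was at 1.41 and 0.895 RPKM in deficient tumors, against 8.65, 2.49, 7.54 and 2.04 RPKM in sufficient tumors. Cd247, the zeta chain that NK cells also use, was at 0.532 and 0.475 RPKM in deficient tumors, against 4.01, 1.11, 2.57 and 0.619 RPKM in sufficient tumors. Neither Cd3g nor Cd247 overlapped between genotypes, with both deficient tumors below all 4 sufficient ones. Cd3g averaged 1.15 ± 0.362 RPKM in deficient (SD, n = 2) and 5.18 ± 3.4 RPKM in sufficient tumors (SD, n = 4). Its difference was -1.35 ± 0.50 (SE) on the log2(RPKM + 1) scale, with an unadjusted limma p of 0.0257 and an adjusted p of 0.893. Cd3d differed by -1.19 ± 0.65 and Cd247 by -0.90 ± 0.43 on that scale, both with a limma adjusted p of 0.893. The exons of Cd247 overlap those of Pou2f1, and the library kit did not mark strand, so reads of the shared stretch cannot be told apart. The level of Cd3d over that of Cd3g was 1.06 and 1.07 in deficient tumors, against 1.25, 0.76, 1.01 and 0.578 in sufficient tumors.

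The coreceptors Cd8a and Cd8b1, whose products pair on cytotoxic T cells, lay 35.932 kb apart on chromosome 6. Cd8b1 was at 1.48 and 0.869 RPKM in deficient tumors, against 9.01, 2.69, 7.36 and 3.18 RPKM in sufficient tumors. Cd8a was at 0.890 and 0.764 RPKM in deficient tumors, against 4.40, 1.65, 3.32 and 0.850 RPKM in sufficient tumors. Cd8b1 did not overlap between genotypes, whereas for Cd8a sufficient 4 lay between the deficient tumors. Cd8b1 averaged 1.17 ± 0.433 RPKM in deficient (SD, n = 2) and 5.56 ± 3.11 RPKM in sufficient tumors (SD, n = 4). Its difference of -1.48 ± 0.44 (SE) on the log2(RPKM + 1) scale had the smallest unadjusted p of the 25 genes tested, 0.00885, and its limma adjusted p was 0.893. Cd4, the coreceptor of helper T cells, was at 1.09 and 1.06 RPKM in deficient tumors, against 2.67, 1.03, 2.88 and 0.590 RPKM in sufficient tumors. The deficient tumors were inside the sufficient range, and the limma difference was -0.33 ± 0.39 with an adjusted p of 0.898. The level of Cd4 over that of Cd8a was 1.23 and 1.38 in deficient tumors, against 0.606, 0.624, 0.867 and 0.694 in sufficient tumors. These ratios did not overlap, with the deficient tumors above, though they were picked after the values were seen and rest on levels near 1 RPKM.

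The 4 signaling genes did not share 1 order. Lck, the kinase that phosphorylates the CD3 chains, was at 5.06 and 11.0 RPKM in deficient tumors, against 15.9, 7.37, 8.77 and 12.8 RPKM in sufficient tumors. Zap70, the kinase recruited to them, was at 3.29 and 4.09 RPKM in deficient tumors, against 6.69, 3.88, 2.99 and 10.8 RPKM in sufficient tumors. In sufficient 4, where the CD3 genes were low, Zap70 was at its highest level and Lck was exceeded only by sufficient 1. Zap70 is known from early B-lineage cells in mice too, and Lck from B-1 cells. The level of Lck over that of Cd3g was 3.6 and 12.3 in deficient tumors, against 1.83, 2.96, 1.16 and 6.27 in sufficient tumors. Lat, the adaptor that Zap70 phosphorylates, was at 1.90 and 1.81 RPKM in deficient tumors, against 8.38, 4.46, 6.67 and 1.83 RPKM in sufficient tumors. Sufficient 4 again sat with the deficient tumors for Lat, whose limma difference was -1.02 ± 0.45 with an unadjusted p of 0.0508 and an adjusted p of 0.893. Lck differed by -0.46 ± 0.37 and Zap70 by -0.47 ± 0.42, each with a limma adjusted p of 0.893. Themis, a regulator of thymocyte selection, was at 0.0539 and 0.0493 RPKM in deficient tumors, against 0.540, 0.136, 0.563 and 0.0661 RPKM in sufficient tumors. It did not overlap between genotypes, and it entered the test through sufficient 1 and sufficient 3 alone.

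Of the 4 transcription factors and receptors of T-lineage commitment, Tcf7 alone reached 1 RPKM. Tcf7, encoding TCF1, was at 1.59 and 1.03 RPKM in deficient tumors, against 10.5, 4.15, 6.84 and 2.23 RPKM in sufficient tumors. Both deficient tumors were below all 4 sufficient ones. Tcf7 averaged 1.31 ± 0.395 RPKM in deficient (SD, n = 2) and 5.92 ± 3.57 RPKM in sufficient tumors (SD, n = 4), and its difference was -1.44 ± 0.47 (SE) on the log2(RPKM + 1) scale. Its unadjusted limma p was 0.014 and its adjusted p 0.893. Bcl11b, which secures commitment to the T lineage, ranged over 0.125 to 0.159 RPKM in deficient and 0.105 to 0.731 RPKM in sufficient tumors. Gata3 ranged over 0.0613 to 0.0982 RPKM in deficient and 0.0574 to 0.145 RPKM in sufficient tumors. Ptcra, encoding the pre-T cell receptor alpha chain of immature thymocytes, ranged over 0.0549 to 0.0758 RPKM in deficient and 0 to 0.138 RPKM in sufficient tumors. These 3 genes overlapped between genotypes and were too low to be tested.

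Cd2, an adhesion receptor that mouse B-lineage cells carry as well, was the most abundant of the 31 genes in 5 of the 6 tumors and ran against the CD3 order. It was at 31.4 and 33.3 RPKM in deficient tumors, against 12.7, 33.4, 54.4 and 76.5 RPKM in sufficient tumors. The deficient values lay inside the sufficient range, with sufficient 1 lowest and sufficient 4 highest, and the limma difference was -0.18 ± 0.59 with an adjusted p of 0.956. Cd5, an inhibitory receptor also found on B-1 cells, was at 0.674 and 0.553 RPKM in deficient tumors, against 3.52, 1.20, 1.38 and 0.605 RPKM in sufficient tumors. Its neighbour on chromosome 19, the related receptor Cd6, was at 0.354 and 1.81 RPKM in deficient tumors, against 2.67, 0.765, 1.21 and 0.215 RPKM in sufficient tumors. The order of the 2 deficient tumors differed between these neighbours, which lay 50.338 kb apart. The costimulatory receptor Cd27 was at 0.742 and 0.583 RPKM in deficient tumors, against 2.59, 1.44, 2.02 and 0.541 RPKM in sufficient tumors. Cd28, the main costimulatory receptor of T cells, was at 0.165 and 0.171 RPKM in deficient tumors, against 0.747, 0.223, 0.715 and 0.112 RPKM in sufficient tumors. Sufficient 4 was the lowest tumor for Cd6, Cd27 and Cd28. Cd5, Cd27 and Cd28 differed by -0.62 ± 0.38, -0.60 ± 0.34 and -0.28 ± 0.26 on the log2(RPKM + 1) scale, each with a limma adjusted p of 0.893, and Cd6 by -0.07 ± 0.46 with an adjusted p of 0.984. Ctla4 and Icos, neighbours of Cd28 on chromosome 1, encode an inhibitory and a costimulatory receptor and were not tested. Ctla4 ranged over 0.393 to 0.412 RPKM in deficient and 0.362 to 0.917 RPKM in sufficient tumors, highest in sufficient 4. Icos ranged over 0.190 to 0.255 RPKM in deficient and 0.0411 to 0.475 RPKM in sufficient tumors, lowest in sufficient 4.

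The NK and cytotoxic genes overlapped between genotypes without exception among the 9 examined. Gzma, a granzyme of NK and cytotoxic T cells, was at 2.69 and 1.21 RPKM in deficient tumors, against 4.56, 0.581, 4.80 and 1.02 RPKM in sufficient tumors. Gzmb was at 0.853 and 0.742 RPKM in deficient tumors, against 0.780, 0.193, 0.945 and 0.184 RPKM in sufficient tumors. Both granzymes were lower in sufficient 2 and sufficient 4 than in any other tumor. Prf1, the pore-forming perforin, was at 0.892 and 0.772 RPKM in deficient tumors, against 0.737, 1.06, 0.626 and 1.66 RPKM in sufficient tumors. It ran against the granzymes among sufficient tumors, with sufficient 4 highest and sufficient 3 lowest. Nkg7, a granule membrane protein, was at 1.92 and 1.01 RPKM in deficient tumors, against 6.77, 1.78, 1.96 and 0.582 RPKM in sufficient tumors. The chemokine Ccl5 was at 3.41 and 3.86 RPKM in deficient tumors, against 6.77, 2.64, 4.24 and 1.65 RPKM in sufficient tumors. The deficient tumors were inside the sufficient range for both. Klrd1, encoding CD94, was at 1.01 and 0.795 RPKM in deficient tumors, against 3.38, 1.18, 1.64 and 0.616 RPKM in sufficient tumors. Il2rb, the receptor chain shared by IL-2 and IL-15, was at 1.63 and 2.63 RPKM in deficient tumors, against 4.16, 1.11, 1.86 and 0.919 RPKM in sufficient tumors. Sufficient 1 was the highest and sufficient 4 the lowest tumor for Nkg7, Ccl5, Klrd1 and Il2rb alike. Klrb1c, the NK1.1 antigen of this strain, was at 0.302 and 0.487 RPKM in deficient tumors, against 0.837, 0.151, 0.714 and 0.294 RPKM in sufficient tumors. Ncr1, encoding the NK receptor NKp46, ranged over 0.321 to 0.387 RPKM in deficient and 0.0675 to 0.761 RPKM in sufficient tumors and was not tested. The limma differences were between -0.41 (Klrd1) and 0.27 (Gzmb) on the log2(RPKM + 1) scale, with adjusted p-values of 0.893 to 0.984.

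Deficient against sufficient tumors, none of the 31 genes passed the limma test at an adjusted p of 0.05, which 8 of 12751 genes tested did (0.0627%). A gene was tested if 2 or more tumors reached 0.5 RPKM, which held for 25 of the 31 genes, of which Themis, Cd28 and Klrb1c entered through sufficient tumors alone. An unadjusted p under 0.05 with a lower level in deficient tumors was seen for 3 genes, Cd3g, Cd8b1 and Tcf7, against 0.737% of all genes tested. The groups did not overlap, with deficient lower, for 5 genes, namely Cd3g, Cd247, Cd8b1, Themis and Tcf7, against 2.09% of all genes tested. No gene of the set lay without overlap above the sufficient tumors, which 9.15% of all genes tested did. The log2 fold change was negative for 22 of the 25 genes, against 32.4% of all genes tested, with Il2rb, Gzmb and Ccl5 above 0. The median log2 fold change was -0.41, against 0.13 over all genes tested. With no filter, 26 of the 31 genes were negative, with a median of -0.31 against 0.03 over all genes. Rescaling each tumor to its median ratio moved the median of all genes to -0.01 and that of the tested set to -0.49. For a single gene that did not overlap, an exact two-sided permutation test over the 15 splits of the tumors gave p = 0.133, the smallest value it can reach.

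**Figure D2:**
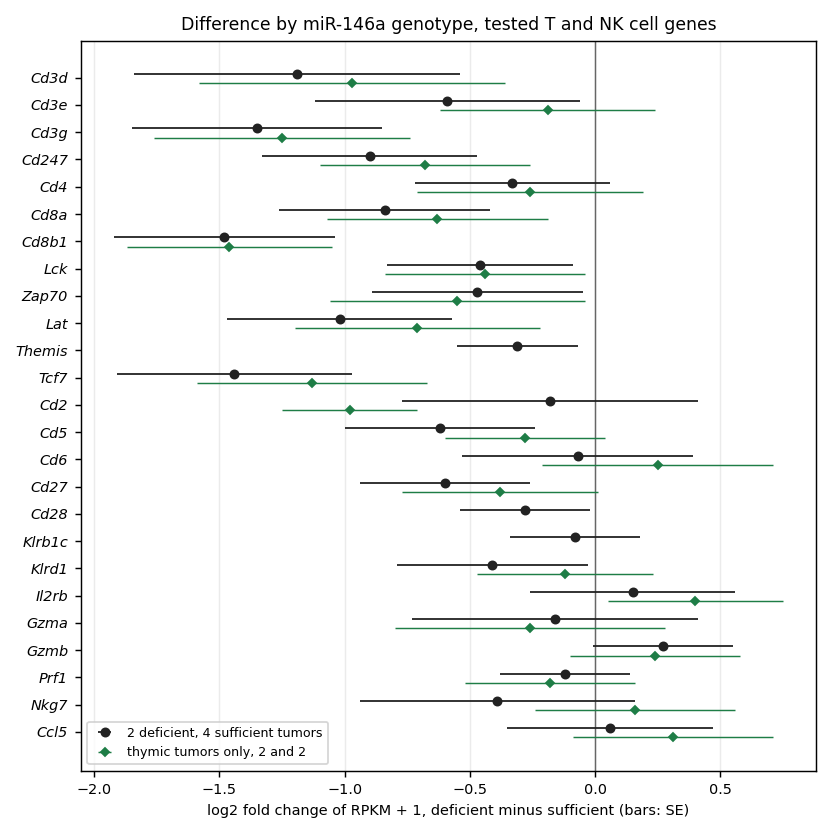
Points give the log2 fold change of RPKM + 1, deficient minus sufficient, with SE bars, for the 25 genes tested, over all 6 tumors (black) and over the thymic tumors (green, 22 genes). Tcf7, Cd8b1 and Cd3g lie furthest to the left over all tumors, and Gzmb, Il2rb and Ccl5 lie right of 0.

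Among thymic tumors alone, 2 deficient and 2 sufficient, the median over 22 genes was -0.33, against 0.19 over all genes. Of the 22 genes, 17 were negative. For 4 genes, Cd2, Cd3g, Cd8b1 and Tcf7, the unadjusted limma p was under 0.05 with deficient lower, against 2.12% of all genes. None passed the adjusted threshold there. Cd8b1 differed by -1.46, Cd3g by -1.25 and Tcf7 by -1.13 there, close to the values over all tumors. Others were nearer 0 there, with Cd3e at -0.19 against -0.59 over all tumors, Klrd1 at -0.12 against -0.41, Cd5 at -0.28 against -0.62 and Cd27 at -0.38 against -0.60. Cd2 differed by -0.98 in thymic tumors, against -0.18 over all tumors, and Cd6 and Nkg7 differed by 0.25 and 0.16, opposite in sign to their values over all tumors. Without deficient 2, whose sex label was in doubt, the median was -0.54 and no gene had an unadjusted limma p under 0.05, against 0.377% of all genes tested, lower in deficient tumors. That fit has a single deficient tumor, which is assumed to vary like the sufficient ones. Without sufficient 4, 9 genes had an unadjusted limma p under 0.05, lower in deficient tumors, against 0.84% of all genes in that fit. They were Cd247, Cd27, Cd3d, Cd3g, Cd5, Cd8a, Cd8b1, Lat and Tcf7, and none passed the adjusted threshold. Such a p was seen for 3 genes without sufficient 1, 3 without sufficient 2 and 2 without sufficient 3. The shares of all genes in those fits were 1.05%, 1.27% and 1.04%. Without sufficient 1, 16 of 22 genes were negative, with a median of -0.31.

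Tumors of the same genotype and the same site differed widely in these genes. In the neck node, sufficient 1 exceeded sufficient 2 for 28 of the 31 genes, with a median ratio of 2.87. Ptcra, Cd2 and Prf1 were the exceptions. In the thymus, sufficient 3 exceeded sufficient 4 for 26 genes, with a median ratio over the set of 3.5, and Lck, Zap70, Cd2, Ctla4 and Prf1 were the exceptions. Among the 25 genes tested, 20 were more than 2-fold higher in sufficient 1 than in sufficient 2, against 5.0% of all genes tested, and 21 were more than 2-fold higher in sufficient 3 than in sufficient 4, against 5.29%. Sufficient 1 and sufficient 3 were the highest 2 tumors for 18 of those 25 genes, against 2.93% of all genes tested. This order was noted in the values and then counted, so it describes these 6 libraries, and each pair compares 1 tumor with 1 tumor.

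**Figure D3:**
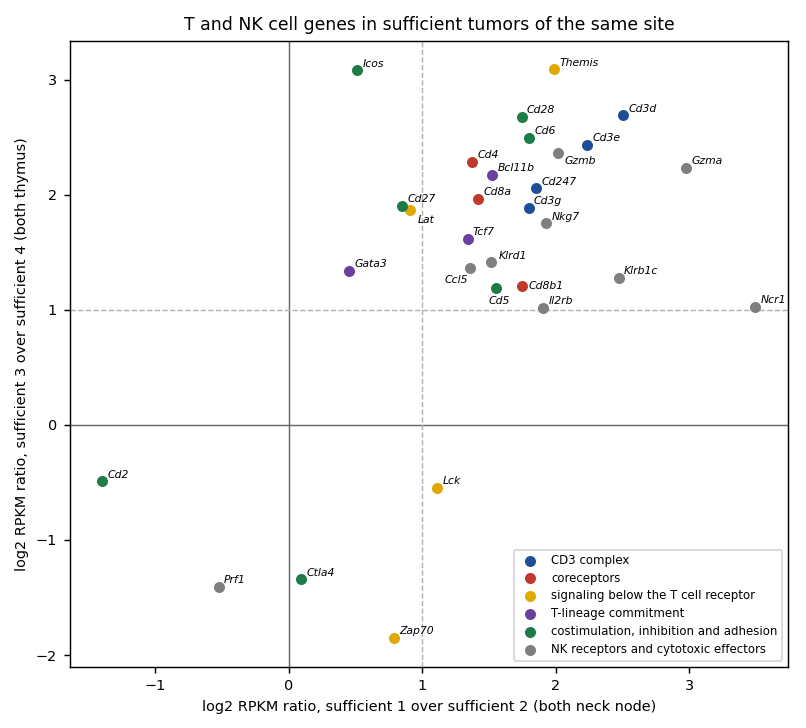
Each point is a gene, with the log2 RPKM ratio of sufficient 1 over sufficient 2 (neck node) across and of sufficient 3 over sufficient 4 (thymus) upward, dashed lines marking 2-fold and colors the roles. Of 30 genes plotted, 21 exceed 2-fold in both ratios, and Ptcra is left out because it was at 0 in sufficient 1 and sufficient 4.

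Neck node against thymus within the sufficient tumors, no gene of the set passed the limma test at an adjusted p of 0.05, which 19 of 12255 genes tested did (0.155%). At an unadjusted p under 0.05 there was 1 of the 25 genes, Cd2, which was lower in the neck node, against 2.65% of all genes tested, and 19 of the 25 differences were positive, against 61.0% of all genes tested. The median log2 fold change was 0.42, against 0.10 over all genes. It ranged from -0.10 to 0.94 when each tumor was left out in turn, being -0.09 without sufficient 1 and -0.10 without sufficient 4. Cd2 was at 12.7 and 33.4 RPKM in neck node and 54.4 and 76.5 RPKM in thymic tumors. Its limma difference was -1.59 ± 0.45, with an unadjusted p of 0.0106 and an adjusted p of 0.577, and without sufficient 2 it was -2.25 with an adjusted p of 0.0152. That fit has a single neck node tumor, which is assumed to vary like the thymic tumors. The highest positive difference was that of Nkg7, 1.10 with a limma adjusted p of 0.659. Cd8b1, Lck and Themis differed between sites by 0.04, 0.03 and 0.03. Site and age cannot be told apart here, since both neck node mice were older.

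The T cell receptor genes, which were not among the 31, included 3 alpha and beta constant genes with the same 2 highest tumors. Trac, the alpha constant gene, was at 3.36 and 3.14 RPKM in deficient tumors, against 14.7, 4.5, 6.86 and 1.36 RPKM in sufficient tumors. Trbc1, a beta constant gene, was at 5.08 and 3.28 RPKM in deficient tumors, against 22.1, 6.69, 40.8 and 3.63 RPKM in sufficient tumors. Trbc2, its near-identical copy, was at 7.37 and 4.10 RPKM in deficient tumors, against 38.8, 10.5, 56.1 and 7.15 RPKM in sufficient tumors. Sufficient 1 led for Trac and sufficient 3 for both beta genes, so that beta exceeded alpha most in the thymic tumor sufficient 3. Reads shared by the beta copies may have been divided or dropped, and the levels of Trbc1 and Trbc2 are uncertain. Trbc2 differed by -1.72 ± 0.74, with an unadjusted limma p of 0.0486 and an adjusted p of 0.893. Of 42 alpha variable genes (Trav), 17 and 6 were above 0 in deficient tumors, against 28, 15, 18 and 4 in sufficient tumors. The summed RPKM of the Trav genes was 2.06 and 0.625 in deficient tumors, against 10.4, 2.3, 3.74 and 0.925 in sufficient tumors. Many variable genes were thus detected at low level in sufficient 1, and no depth is known to set these numbers against. The 21 beta and 6 gamma variable genes were listed at 0 in every tumor, as were all 304 entries of their class in the table, and they carry no information. Tcrg-C1, a gamma constant gene, was at 0.577 and 0.457 RPKM in deficient tumors, against 0.569, 0.111, 1.44 and 0.111 RPKM in sufficient tumors. For this gene sufficient 3 was highest and sufficient 1 lay at the level of the deficient tumors. Tcrg-C2 was also highest in sufficient 3, at 1.32 RPKM. Tcrg-C was instead highest in sufficient 1, at 0.551 RPKM, against 0.418 RPKM in sufficient 3 and 0.0539 and 0.294 RPKM in deficient tumors.

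**Figure D4:**
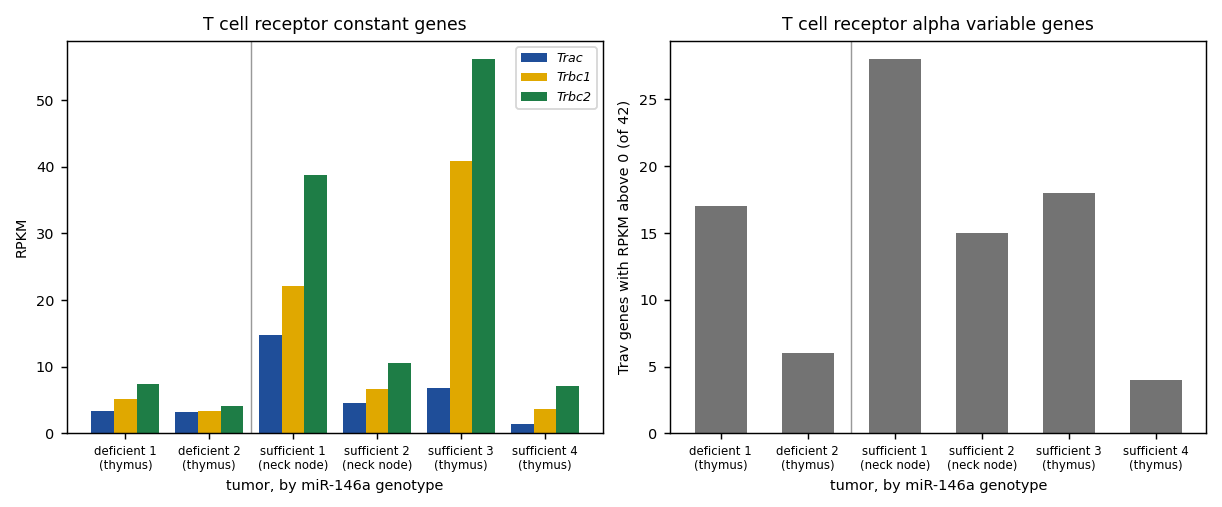
Bars give RPKM of the receptor constant genes Trac, Trbc1 and Trbc2 by tumor (left) and the number of 42 Trav genes above 0 (right). Trbc2 reaches 56.1 in sufficient 3 and 38.8 in sufficient 1, and stays at or below 10.5 in the other 4 tumors.

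Other genes of T and NK cells were examined by list. Of 34 further T cell genes in the table, 25 were tested and none was called by limma in either direction, with 3 at an unadjusted p under 0.05, all lower in deficient tumors, and a median log2 fold change of -0.31. Of 18 thymocyte development genes, 14 were tested and none was called, with 2 at an unadjusted p under 0.05, both lower, and a median of -0.20. Of 26 further NK and cytotoxic genes, 10 were tested, none was called or had an unadjusted limma p under 0.05, and the median was -0.34. Over all genes tested, 0.0627% were called and 0.737% had an unadjusted limma p under 0.05 with a lower level in deficient tumors. The median of all genes tested was 0.13. Il7r, the interleukin-7 receptor, was at 1.58 and 2.26 RPKM in deficient tumors, against 10.9, 5.23, 2.97 and 40.8 RPKM in sufficient tumors. Lef1, a factor related to Tcf7, was at 0.173 and 0.0827 RPKM in deficient tumors, against 5.78, 1.00, 0.468 and 4.39 RPKM in sufficient tumors. Il7r and Lef1 were named because their groups did not overlap, with deficient lower. Among tested genes this held for 4 of 25 T cell, 2 of 14 thymocyte and 1 of 10 NK and cytotoxic genes. Over all genes tested the share was 2.09%. The groups lay apart with deficient higher for 1, 1 and 0 genes, against 9.15% of all genes tested. Lef1 entered the test through sufficient tumors alone. The limma differences of Il7r and Lef1, -1.86 and -1.51, had adjusted p-values of 0.893. Both genes are also expressed by B-lineage cells. Il7r was highest in sufficient 4, which was low in CD3 genes, and Lef1 in sufficient 1, which was high in them. Which cells expressed Il7r and Lef1 was not tested. Sufficient 1 and sufficient 3 were the highest 2 tumors for 10 of the 34 further T cell genes. The same held for 2 of the 18 thymocyte development genes and for 9 of the 26 further NK and cytotoxic genes. Over all genes tested the share was 2.93%. Most genes of each list did not have this order, and the list counts include genes too low to be tested.

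Markers of other cells in the tumors are given beside these values. Sufficient 1 and sufficient 3 were the highest 2 tumors for 0 of the 10 B-cell, 0 of the 11 macrophage and 0 of the 10 neutrophil genes, but for 4 of the 7 dendritic cell genes. The share of all genes tested was 2.93%, so a count of 0 in lists this short carries little information. The summed dendritic cell genes were 2.62 and 7.34 RPKM in deficient tumors, against 4.47, 2.46, 5.12 and 3.03 RPKM in sufficient tumors, and their part in the order of the T and NK cell genes was not tested. The summed B-cell markers were 2250 and 1380 RPKM in deficient tumors, against 1350 to 2060 RPKM in sufficient tumors. The level of Cd3d over that of Cd79a was 0.0028 and 0.00248 in deficient tumors, against 0.0264, 0.00344, 0.0195 and 0.00294 in sufficient tumors. Cd79a ranged only over 388 to 550 RPKM, so this ratio follows Cd3d and is no separate check. Of the macrophage markers, 7 of 11 were higher without overlap in deficient tumors, against 9.15% of all genes tested, and none was called by limma. Their sums were 279 and 381 RPKM in deficient tumors, against 151 to 319 RPKM in sufficient tumors. C1qa was at 22.9 and 27.7 RPKM in deficient tumors, against 4.92, 4.71, 9.25 and 15.1 RPKM in sufficient tumors. The part of the macrophage genes in the differences above was not tested. Neutrophil markers had summed levels of 1650 and 1700 RPKM in neck node tumors and 238 and 207 RPKM in sufficient thymic tumors, and their part in the difference between sites was not tested. The 8 thymic epithelium genes summed to 2.58 and 4.44 RPKM in deficient tumors, against 1.45 to 3.46 RPKM in sufficient tumors. Of these, Foxn1, Psmb11 and Aire were at or below 0.0146 RPKM in every tumor, whereas Ccl25 was at 0.937 RPKM or above in every tumor and Krt8 reached 1.64 and Prss16 0.788 RPKM in deficient 2. Their part in the values above was not tested. Ptcra was at or below 0.138 RPKM. Dntt, expressed in immature lymphocytes of both lineages, was at 6.34 RPKM in sufficient 3 and at or below 0.606 RPKM elsewhere.

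**Figure D5:**
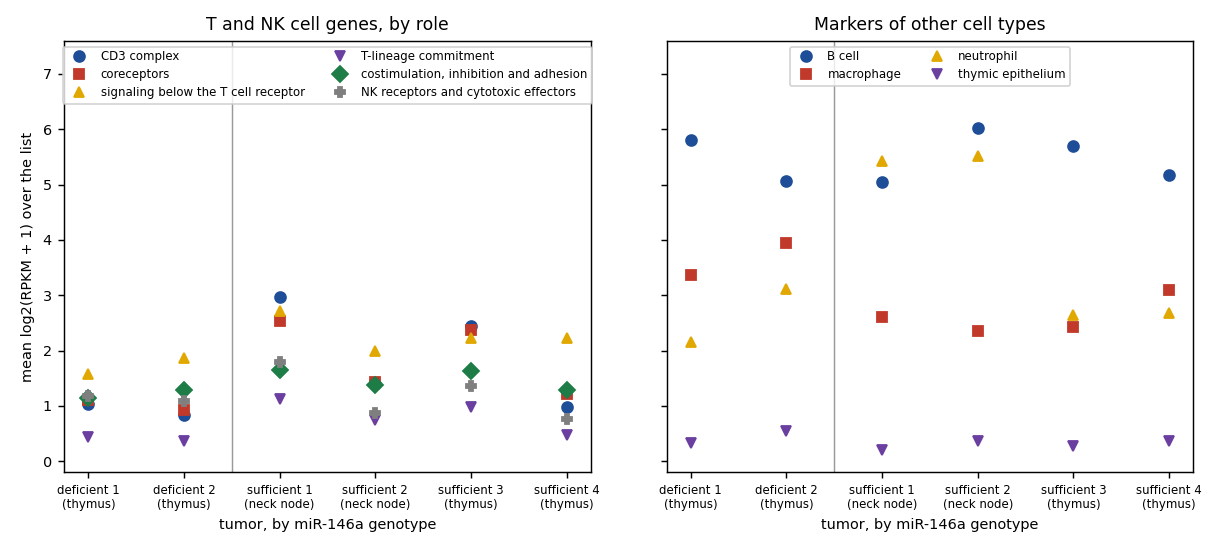
Points give the mean log2(RPKM + 1) over a list in each tumor, for the 6 roles of the T and NK cell genes (left) and for markers of other cell types (right), deficient tumors left of the line. CD3 genes average 2.97 in sufficient 1 and 2.44 in sufficient 3 and at most 1.39 in the other 4 tumors, neutrophil genes are high in both neck node tumors, and thymic epithelium genes average 0.20 to 0.54.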

How the data were processed

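Tumor RNA was read on single-end libraries, with 2 technical replicates per tumor per the labels, given as 1 column a tumor. How these were combined is not given in the sources used here. The submitters' processing notes name STAR 2.3.0, HTSeq 0.5.4p3 and DESeq 1.12.1, with the GRCm38 (mm10) build. The authors deposited RPKM values, and the gene lengths and depths behind them are not stated, so no count model was run.

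RPKM was tested as log2(RPKM + 1) with limma 3.58.1 (trend) in R 4.3.3, over all genes with at least 0.5 RPKM in at least 2 tumors, with Benjamini-Hochberg adjustment and a threshold of 0.05. Fold changes on this scale understate changes of low genes. The script was tested on simulated data, with changes placed only in genes above a set mean level. That test does not show how changes in the lowest of the 31 genes are recovered. Labels name separate tumors and not separate mice, so p-values measure the spread between these tumors. The 31 genes and all lists were chosen with earlier results of these data known. Values are given per tumor for genes with at least 0.5 RPKM in at least 2 tumors and as ranges for the rest. Genes of the pathway lists are named where groups did not overlap and the difference exceeded 2-fold, at most 4 a list, and marker genes are examples. Some genes under this rule are not reported here. The Trav and Tcrg-C genes, the ratios between genes and the order of the tumors were chosen after values were seen. Alternatives covered the pseudocount (0.1, 0.5 or 5), the filter (none or 1 RPKM), scaling, trend, site, a replicate block and each tumor left out. Positions came from GENCODE M21, sequences from RefSeq (GRCm38.p6). SciPy 1.17.1, pandas 2.3.3 and matplotlib 3.10.9 were used.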

Additional observations from a re-analysis of the deposited data

How the results depend on the processing

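None of the 31 genes was called for genotype under the 17 alternatives tried, and 16 of the 25 tested kept their direction in each alternative that tested them (13 for Themis and Cd28, 16 for Gzmb, 17 for the others). Over all genes, 8 were called, and 3 among thymic tumors, 3 with the site as a covariate, 1 with a replicate block and 4 to 9 with each tumor left out, being 4 without sufficient 3 and 5 without either deficient tumor. Cd6 and Nkg7 differed by 0.25 and 0.16 among thymic tumors, and by 0.25 and 0.16 with the site as a covariate. Cd2 was 0.62, Il2rb -0.09 and Ccl5 -0.20 under the replicate block, and Ccl5 was -0.08 with median-ratio scaling and -0.07 with quantile normalization. With each tumor left out in turn, Lck ranged over -0.95 to 0.03, Cd2 over -0.67 to 0.17, Cd6 over -0.59 to 0.46, Klrb1c over -0.20 to 0.02, Il2rb over -0.08 to 0.45, Gzma over -0.53 to 0.21, Prf1 over -0.21 to 0.03, Nkg7 over -0.72 to 0.04 and Ccl5 over -0.19 to 0.33. The cause of these turns was not tested. The median over the tested genes stayed between -0.62 and -0.21. Between sites, 19 genes were called in all, 0 with no filter on low values, 11 with quantile normalization and 11 to 67 with each tumor left out (32 without sufficient 1, 67 without sufficient 2 and 11 without sufficient 4), and of the 31 genes 0 to 1 with each tumor left out, Cd2 without sufficient 2. Leaving out a tumor of an arm of 2 leaves a lone tumor, assumed to vary like the others. Replicate numbers were shared by deficient and sufficient 1 and 2, and deviations correlated at 0.0192 and 0.213, so 2 pairs do not show that the numbers pair the tumors. Only numbers 1 and 2 occur in both genotypes, so the block set the thymic deficient tumors against the older, neck node sufficient tumors. Genotype, site and age cannot be told apart in that fit. Under the block 10 of the 25 genes had an unadjusted limma p under 0.05 and lower levels in deficient tumors, against 3 without it. The share of all genes was 1.94% and 0.737%. With the site as a covariate 1 gene had one, Cd8b1, against 2.19% of all genes. Depth is unknown, and 6 genes under the filter could not be tested.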
